A study of Mus musculus with 4 samples.

Results

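NR2F1 occupancy in embryonic mouse hindbrain was examined at genes that mark the blood vessel lining: the ETS factors *Erg* and *Fli1*, the SOXF factors *Sox7*, *Sox17* and *Sox18*, the receptors *Flt1*, *Kdr*, *Tek* and *Tie1*, and the adhesion gene *Cdh5*. They are 10 of 21951 annotated protein-coding genes. Peaks of all libraries that overlapped by 1 bp or more were merged, and the regions within each gene or 20 kb on either side were taken, so the regions themselves were chosen by the peaks called in these libraries. This gave 204 of 263639 merged regions. Peaks of all 4 libraries met in 17 of them, which were tested along with the rest of the 35770 testable regions. At the limit of the window, the outermost tested region lay in the 3′ flank of *Erg*, with a normalised count (CPM, each library scaled to 1000000 cut sites in tested regions) of 9.16 and 14.4 in the Fam5snv/snv libraries and 10.5 and 9.14 CPM in the WT libraries. The nearest tested region outside lay 21.5 kb from *Sox18*, with 13.5 and 8.60 CPM in the Fam5snv/snv libraries and 11.9 and 13.0 CPM in the WT libraries.

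ERG and FLI1 are DNA-binding proteins of the ETS family that switch on endothelial genes and hold endothelial identity, and SOX7, SOX17 and SOX18 act beside them in vessel and arterial development. FLT1 and KDR are the receptors for vascular endothelial growth factors, TEK (also called TIE2) is the receptor for angiopoietins and TIE1 is its partner, and CDH5 is VE-cadherin, the adhesion molecule of endothelial junctions. NR2F1 (COUP-TFI) is a nuclear receptor that binds pairs of the core AGGTCA, and its relative NR2F2 is known for its role in venous endothelium.

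Single-cell CUT&Tag was performed with an anti-NR2F1 antibody, which directs the transposase Tn5 to bound DNA so that cut sites count the signal near the protein. The 2 Fam5snv/snv libraries came from pools of 8 and 16 embryos that carry on both alleles a knocked-in single-nucleotide variant in a conserved non-coding element near *Gata2*, and the 2 WT libraries from pools of 26 and 26 embryos. All embryos were at embryonic day 10.5 and carried Isl1MN-GFP, a reporter expressed in motor neurons, and rhombomere 4 with adjacent tissue was microdissected and GFP-positive cells were sorted. The published sorting methods describe opening the gate to GFP-negative cells near the end of a sort, without naming the assay. Barcodes may therefore include other cells of the region, and no cell type was assigned to a barcode here. Signal at a gene is occupancy, not RNA, so it does not show whether the cell expresses the gene, and the label endothelial describes what these genes are known for and could not be checked against RNA.

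The Fam5snv/snv libraries held 2274 and 2740 barcodes with 8967987 and 10341894 cut sites, and the WT libraries 2572 and 1377 barcodes with 3083946 and 3580517 cut sites. Pairs of libraries shared 3 to 12 barcode sequences, at most 0.799% of the smaller library. Called peaks numbered 137996 and 170993 over 108.0 and 143.1 Mb in the Fam5snv/snv libraries, against 42168 over 31.0 Mb in WT replicate 1 and 151951 over 93.1 Mb in WT replicate 2. WT replicate 1 thus stood apart. Of all cut sites, 79.9% and 74.1% lay in tested regions in Fam5snv/snv and 99.5% and 77.8% in WT. Whether the peaks of WT replicate 1 were called or filtered differently is not given in the sources used here, so a missing peak in that library may not mean missing signal. Called peaks covered a median of 1496.5 and 1728.0 bp of a tested region in Fam5snv/snv and of 621.0 and 1271.5 bp in WT, and a region could be tested only where WT replicate 1 had a peak too.

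Sequences are shown for the member regions in which NR2F1 core motifs were densest (*Flt1* intron 10 and *Cdh5*), signal was strongest (*Flt1* intron 1) or the p-value between genotypes was smallest (*Erg*), all on the plus strand of GRCm38 (mm10). Capitals mark AGGTCA on either strand in the *Flt1* intron 10 (chr5:147661824-147662038) and *Erg* upstream (chr16:95588988-95589088) sequences. In the *Flt1* intron 1 (chr5:147708188-147708250) and *Cdh5* last exon (chr8:104143675-104143704, in the 3′ untranslated part) sequences, capitals mark matches to a pair of cores spaced by 1 base, AGGTCANAGGTCA, with 1 mismatch.
Flt1 intron 10: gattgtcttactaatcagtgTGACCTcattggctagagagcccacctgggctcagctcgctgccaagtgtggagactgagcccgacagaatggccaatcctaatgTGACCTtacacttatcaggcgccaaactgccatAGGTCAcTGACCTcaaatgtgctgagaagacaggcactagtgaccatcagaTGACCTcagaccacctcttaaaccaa
Flt1 intron 1: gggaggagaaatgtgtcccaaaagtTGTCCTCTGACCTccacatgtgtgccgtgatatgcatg
Erg upstream: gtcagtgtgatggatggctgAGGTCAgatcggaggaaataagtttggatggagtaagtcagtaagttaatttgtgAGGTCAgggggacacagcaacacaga
Cdh5 last exon: AGGTGACAGGTCATAGGTGACAGGTCAtag

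The *Flt1* intron 10 sequence held 5 cores, including an inverted pair with 1 base between them, and the *Cdh5* sequence held 3 overlapping pairs that follow each other every 7 bases. Counted from 1 at the 5′ end of the motif on its own strand, the *Flt1* intron 1 match differs by T11A, and the *Cdh5* matches differ by C5G, C12G and C5G. Both strands were searched in 300-bp windows at the middle of the longest stretch covered by peaks of all libraries. AGGTCA stood in 9 of 17 member windows (52.9%) and in 27.2% of 34989 windows genome-wide. AGGTCANAGGTCA with up to 2 mismatches stood in 4 of 17 member windows (23.5%) and in 10.1% of all windows, and without a mismatch in 0 of 17 and in 0.732%. The ETS core CCGGAA stood in 2 of 17 member windows (11.8%) and 11.6% of all, the SOX core ACAAAG in 2 of 17 (11.8%) and 20.3%, and the GATA core AGATAA in 0 of 17 and 10.2%. A match is a run of letters and does not show a bound site.

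No member region differed between genotypes after adjustment over all regions. With edgeR's quasi-likelihood test, 0 of 17 member regions had an adjusted p under 0.05, as did 0.0% of all 35770 regions. At an unadjusted p under 0.05, 3 of 17 were higher in Fam5snv/snv (17.6%, against 5.29% of all regions) and 0 of 17 were lower (3.37% of all). These 3 were the *Erg* region upstream of the gene and the *Fli1* and *Sox18* regions at their starts. With DESeq2, 1 of 17 was called higher, the *Erg* upstream region, beside 1.04% of all regions. Both Fam5snv/snv libraries lay above both WT libraries in 5 of 17 regions (29.4%, against 23.2% of all) and below them in 3 of 17 (17.6%, against 21.4% of all), so the number of regions with separated groups was near that of the genome. Among the 5 is a region in the 3′ flank of *Fli1* that reached the minimum count only through the Fam5snv/snv libraries. The median log2 fold change was 0.10 over the 17 regions and 0.02 over all regions. Over the 6 member regions that overlap the 1 kb on either side of an annotated start the median was 0.39, with 5 positive, against −0.21 over 12647 such regions genome-wide. Such a region can extend farther, as the *Erg* upstream and *Sox18* regions do, so its signal need not lie within 1 kb. Over the other 11 member regions it was −0.09, with 5 positive, against 0.19 over 23123 other regions genome-wide.

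**Figure D1:**
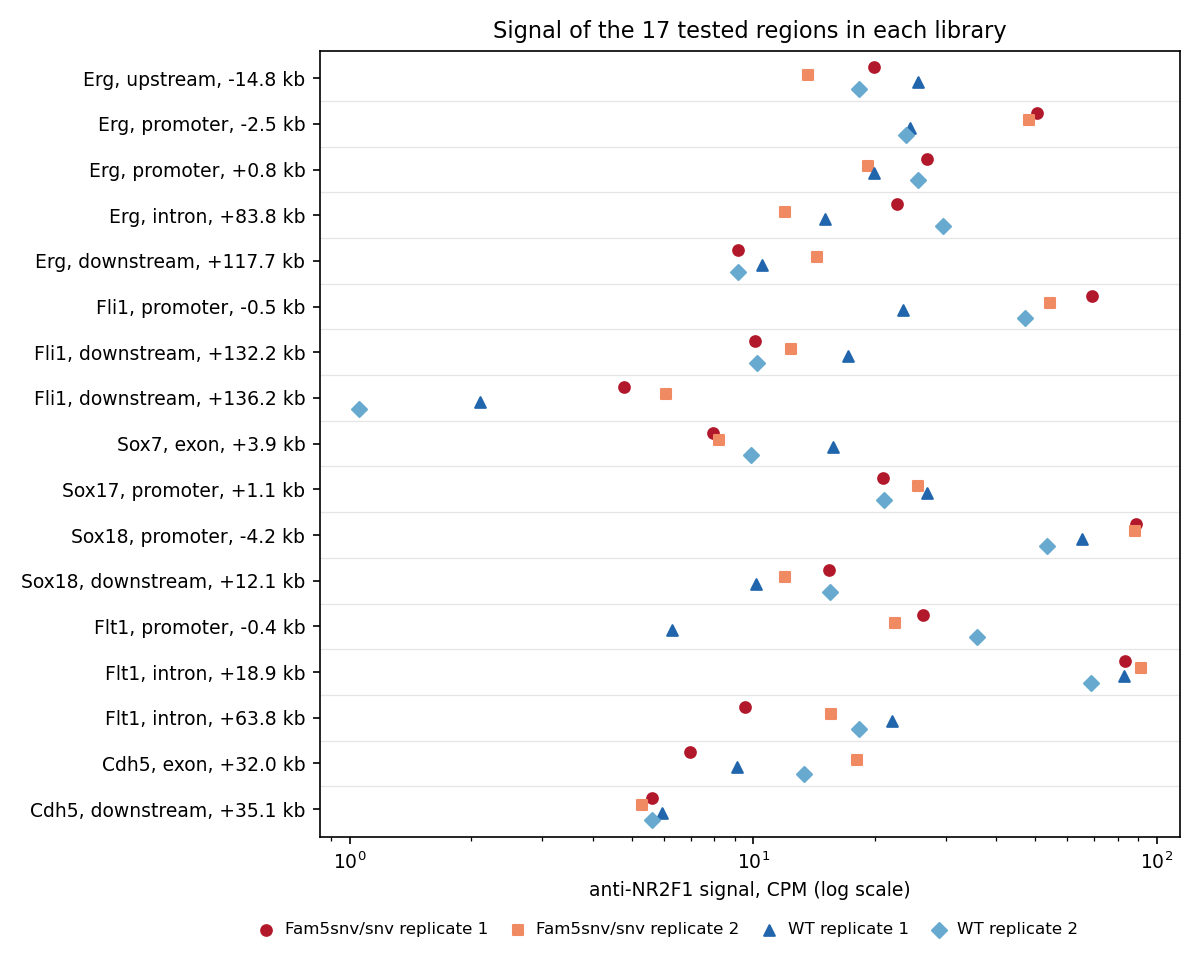
Normalised signal (CPM, log scale) of the 17 tested regions in each library, with the place of each region and the distance of its midpoint from the nearest coding start of the gene. Fam5snv/snv replicates 1 and 2 are red and orange, WT replicates 1 and 2 dark and light blue. The *Erg* region at −2.5 kb sits near 50 CPM in both Fam5snv/snv libraries and near 24 CPM in both WT libraries, while most other rows have mixed libraries.

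*Erg*, the ETS factor that maintains endothelial identity, spans 227.4 kb of chromosome 16 and had 5 tested regions, the most of the 10 genes. The region chr16:95587216-95590966, which begins upstream of the gene start and extends away from it, held 50.6 and 48.2 CPM in Fam5snv/snv and 24.5 and 23.9 CPM in WT. The groups did not overlap, and replicates of 1 genotype differed by far less than the genotypes did. The log2 fold change was 1.03 ± 0.22 (SE; 95% interval 0.51 to 1.54), with unadjusted p = 0.00213 and adjusted p = 0.573 by edgeR. The called peaks at this region also differed in length, covering 3154 and 3751 bp in Fam5snv/snv and 714 and 2097 bp in WT. DESeq2 gave an adjusted p = 0.00685. Leaving out WT replicate 1 or WT replicate 2, which leaves a lone WT library assumed to vary like the others, gave adjusted p = 0.0236 and 0.00967 with edgeR, in fits that called 4.17% and 11.4% of all regions higher. The 2 cores shown above lie in the stretch that WT replicate 1 called, from 95588700 to 95589295.

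The other 4 *Erg* regions did not follow the upstream one. The region across the gene start, chr16:95585010-95586651, held 26.93 and 19.22 CPM in Fam5snv/snv and 19.97 and 25.67 CPM in WT, with a log2 fold change of 0.02 ± 0.31 (SE). The groups overlapped in full, although this region lies less than 1 kb from the upstream region. The region in intron 7, chr16:95373759-95377170, held 22.7 and 12.0 CPM in Fam5snv/snv and 15.1 and 29.5 CPM in WT, so that replicates of each genotype differed more than the genotype means. Farther regions, 14.8 kb upstream and in the 3′ flank, had log2 fold changes of −0.38 ± 0.36 and 0.26 ± 0.46 (SE), with overlapping libraries. Summed over its tested regions, *Erg* held 129.3 and 107.5 CPM in Fam5snv/snv and 95.6 and 106.6 CPM in WT, a log2 fold change of 0.23 ± 0.17 (SE, adjusted p = 0.504 by edgeR). The groups are separated by less than 1 CPM.

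*Fli1*, the ETS factor closest to ERG, had 3 tested regions on chromosome 9. The region chr9:32538489-32548309 covers both annotated starts of the gene and the sequence upstream. It held 69.2 and 54.4 CPM in Fam5snv/snv and 23.5 and 47.1 CPM in WT. Fam5snv/snv was higher without overlap, but the WT libraries differed from each other about as much as the group means did. The log2 fold change was 0.81 ± 0.34 (SE; 95% interval 0.01 to 1.60), with unadjusted p = 0.0469 and adjusted p = 0.576 by edgeR. The value rests on WT replicate 1. Without it the log2 fold change was 0.38, and without WT replicate 2 it was 1.39. Called peaks covered 8209 and 9821 bp of the region in Fam5snv/snv, against 1241 and 6231 bp in WT, and in WT replicate 1 they were 4 peaks of which 1 was 7 bp long.

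In the 3′ flank of *Fli1*, the region chr9:32405015-32405733 was among the faintest tested, with 35 and 48 cut sites in Fam5snv/snv and 6 and 3 in WT (4.79 and 6.07 CPM against 2.10 and 1.06 CPM). Its log2 fold change of 1.77 ± 0.88 (SE, unadjusted p = 0.0850 by edgeR) had the widest error of the 17. This region passed the minimum of 10 cut sites only through the Fam5snv/snv libraries. A neighbouring region at chr9:32408616-32410142 had a log2 fold change of −0.28 ± 0.44 (SE). Summed over the 3 regions, *Fli1* held 84.1 and 72.8 CPM in Fam5snv/snv and 42.7 and 58.4 CPM in WT. The log2 fold change was 0.63 ± 0.20 (SE, 95% interval 0.19 to 1.08), with unadjusted p = 0.00952 and adjusted p = 0.317 by edgeR. The faint region that passed only through Fam5snv/snv is part of this sum.

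Of the SOXF factors, *Sox18* had the region of second highest total CPM among the 17, which is also the longest. Per kb of called peak its mean exceeded that of 40.3% of all tested regions. The region chr2:181670087-181681606 runs from within *Sox18* across 10 kb of upstream sequence into the start of the neighbouring gene *Tcea2*, so its counts cannot be given to 1 of the 2 genes. It held 88.6 and 88.1 CPM in Fam5snv/snv and 65.2 and 53.5 CPM in WT. The Fam5snv/snv libraries were nearly equal and both lay above WT. The log2 fold change was 0.57 ± 0.21 (SE; 95% interval 0.09 to 1.06), with unadjusted p = 0.0264 and adjusted p = 0.573 by edgeR. Without WT replicate 1 the log2 fold change was 0.72 with an adjusted p = 0.0353, in a fit that called 4.17% of all regions higher by edgeR. Leaving out the other WT library gave 0.44 with an adjusted p = 0.111 by edgeR.

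The call lengths at *Sox18* differed more than the signal did. Fam5snv/snv replicate 2 had 1 peak of 11520 bp and replicate 1 had 4 peaks of 8273 bp in all, whereas both WT libraries had 6 peaks at matching places, of 2953 and 4877 bp in all. The WT peak 1.6 to 2.4 kb upstream of the *Sox18* start had 52 cut sites over 758 bp in replicate 1 and 39 over 898 bp in replicate 2. The WT peak inside the gene was smaller, with 15 and 11 cut sites. At the *Tcea2* end, the last WT peak had 44 and 50 cut sites. The signal of this region therefore lay at several places between the genes, most of them away from the *Sox18* start. A region 12.1 kb downstream, which overlaps the neighbouring gene *Gm29797*, had a log2 fold change of 0.10 ± 0.42 (SE). Over both regions *Sox18* held 104.0 and 100.1 CPM in Fam5snv/snv and 75.3 and 68.9 CPM in WT (log2 fold change 0.50 ± 0.16 SE, unadjusted p = 0.0100, adjusted p = 0.317 by edgeR).

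*Sox17*, which acts in arterial endothelium and in endoderm, had 1 tested region, chr1:4491541-4493789, over its coding exons and its downstream alternative starts. It held 20.92 and 25.54 CPM in Fam5snv/snv and 26.97 and 21.10 CPM in WT. The libraries were interleaved and the log2 fold change was −0.05 ± 0.29 (SE; 95% interval −0.73 to 0.64). The peak at the upstream start of *Sox17*, chr1:4496209-4498115, was called in 3 libraries and not in WT replicate 1, and held 85 and 80 cut sites in Fam5snv/snv and 61 in WT replicate 2. These raw counts are not on 1 scale, since tested regions held 7167305 and 7662318 cut sites in Fam5snv/snv and 2786516 in WT replicate 2.

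*Sox7* is the remaining SOXF factor. Its 1 tested region, chr14:63946858-63948301, overlaps the start of the last exon and held 7.93 and 8.22 CPM in Fam5snv/snv and 15.8 and 9.85 CPM in WT. Both Fam5snv/snv libraries were below both WT libraries, but the counts were small (58 and 65 cut sites in Fam5snv/snv, 45 and 28 in WT) and the WT libraries were far apart. The log2 fold change of −0.66 ± 0.47 (SE; 95% interval −1.77 to 0.45) had unadjusted p = 0.200 by edgeR. On the summed counts of the gene, which are this region alone, it was −0.29 when WT replicate 1 was left out and −0.96 when the other WT library was. With peak length as an offset it was −0.19, with the median gene kept at its reported −0.16. In WT replicate 2, 1 barcode gave 28.6% of these cut sites. The promoter peak of *Sox7* was not called in WT replicate 1, and held 29 and 49 cut sites in Fam5snv/snv and 31 in WT replicate 2. These are also raw counts of libraries with unlike totals, so the genotypes are not on 1 scale.

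**Figure D2:**
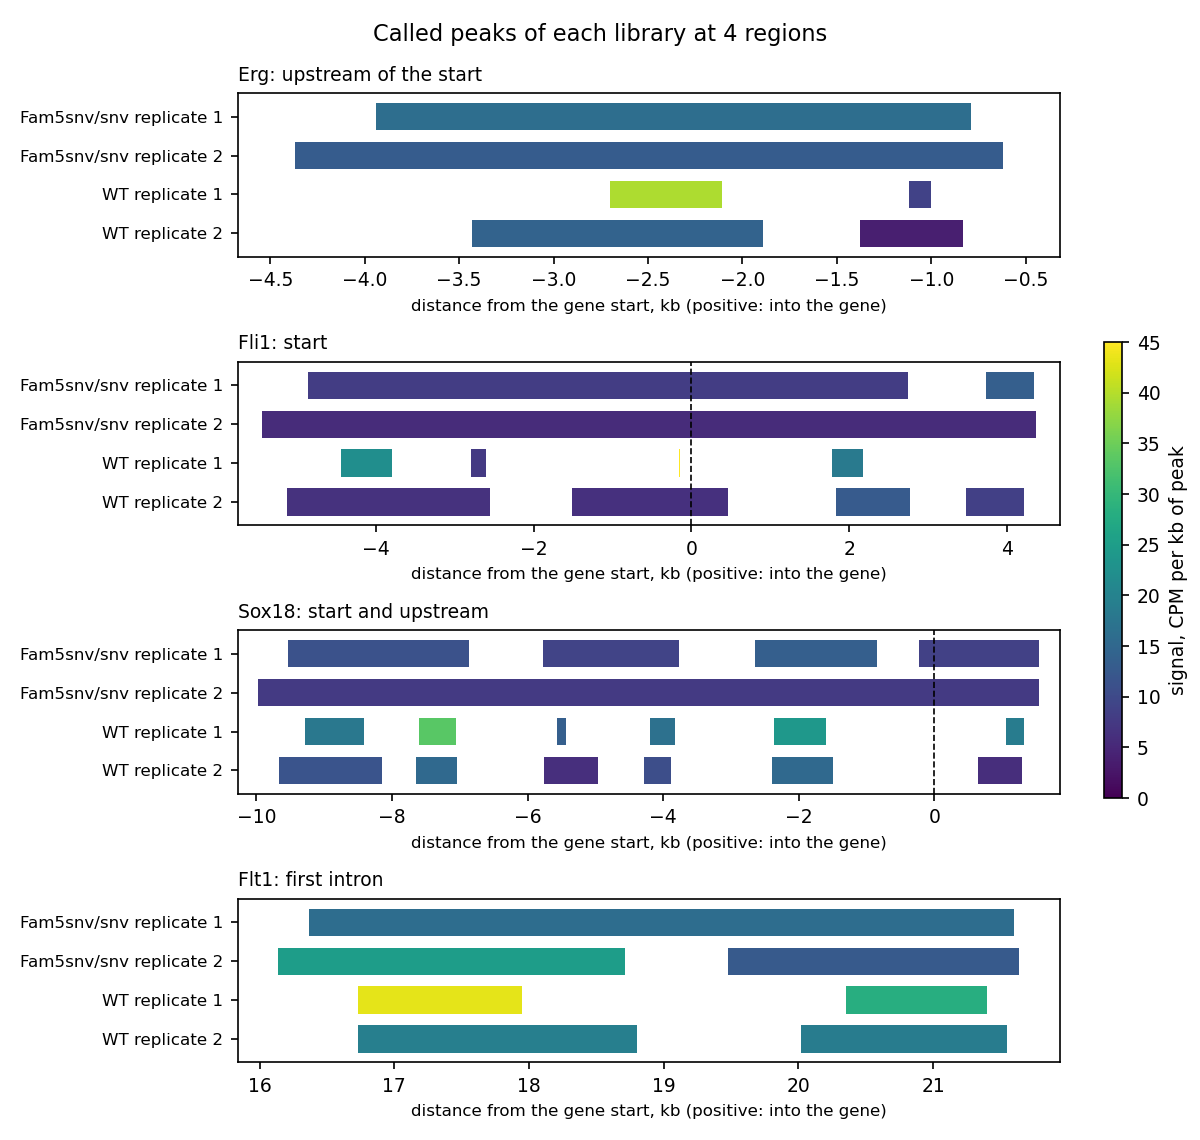
Peaks called in each library at the *Erg* upstream, *Fli1*, *Sox18* and *Flt1* first-intron regions, by distance from the most upstream gene start (kb, dashed line at 0), coloured by signal per kb of peak. Fam5snv/snv rows are above WT rows. Peaks in Fam5snv/snv are long and joined, those of WT replicate 1 are short, and at *Sox18* the 6 WT peaks fall at the same places in both WT libraries.

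Fold changes moved with the length of the called peaks across the genome. Counts exist only inside the peaks of each library, so peak length and count are not independent. Whether length sets the fold change or follows the signal was not tested. Peaks were on average longer in Fam5snv/snv at 96.7% of all tested regions and at 15 of the 17 member regions, with a median log2 length ratio of 0.70 over all and 0.77 over the members. When all regions were divided into 10 equal groups by this ratio, the median log2 fold change was −0.51 in the group with the smallest ratios and 1.23 in the group with the largest. The *Erg* upstream, *Fli1* start and *Sox18* start regions all fell in the ninth group, whose median log2 fold change was 0.63, beside their own values of 1.03, 0.81 and 0.57. *Sox7* and the *Flt1* intron 10 region fell in the first group, whose median was −0.51, beside their own −0.66 and −0.68. Not all members stood near their group: the *Sox18* downstream region had 0.10 in the first group, and the *Cdh5* downstream region had −0.09 in a group whose median was 0.38. Per kb of called peak, the *Erg* upstream region held 16.0 and 12.8 CPM in Fam5snv/snv and 34.4 and 11.4 CPM in WT, and the *Fli1* region held 8.43 and 5.54 CPM in Fam5snv/snv and 18.9 and 7.56 CPM in WT, so on this scale the genotypes overlapped at both. The *Sox18* region held 10.7 and 7.65 CPM per kb in Fam5snv/snv, below the 22.1 and 11.0 CPM per kb in WT. Both Fam5snv/snv libraries lay below both WT libraries on this scale in 8 of 17 member regions (47.1%) and in 61.7% of all regions. With peak length as an offset in the fit, log2 fold changes are given with the median region kept at its reported 0.02. They were 0.16 ± 0.57 at the *Erg* upstream region, −0.10 ± 0.58 at the *Fli1* start and −0.06 ± 0.58 at the *Sox18* start (SE), each within 1 SE of 0.

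**Figure D3:**
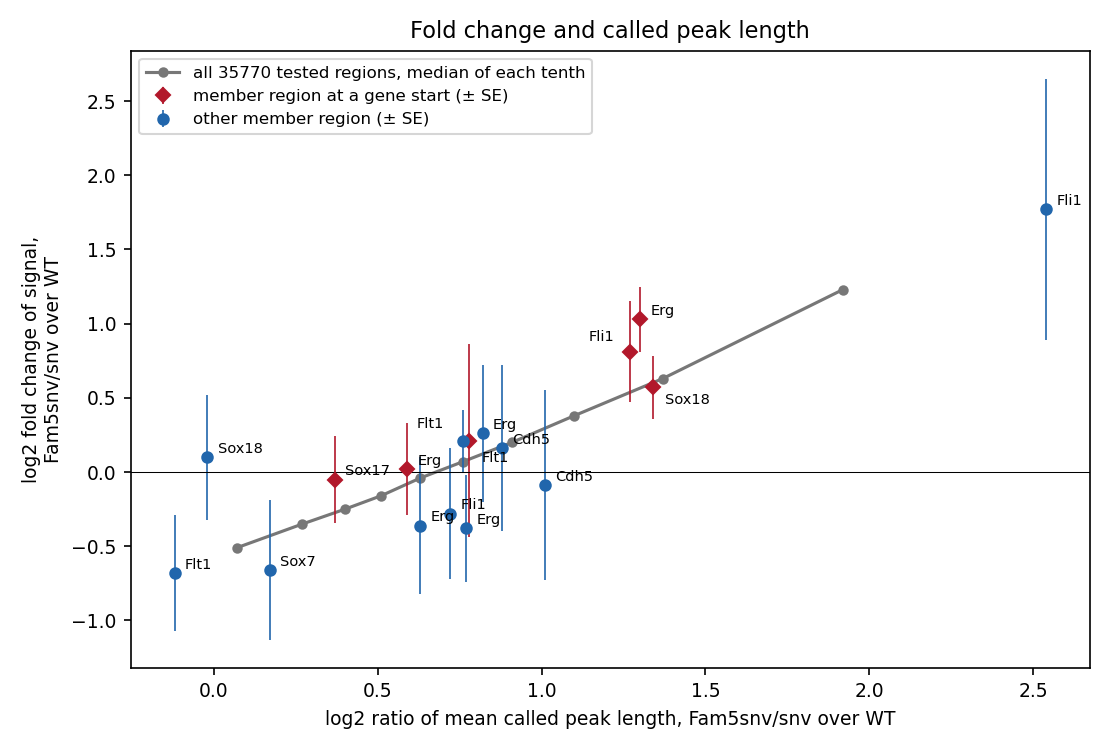
Log2 fold change of signal (Fam5snv/snv over WT, ± SE for members) against the log2 ratio of mean called peak length. Red diamonds are member regions at a gene start, blue circles other member regions, and the grey line joins the medians of 10 equal groups of all tested regions. *Erg*, *Fli1* and *Sox18* lie at the upper right near the grey line, and *Sox7* and the *Flt1* intron 10 region at the lower left.

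*Flt1*, the receptor that binds vascular endothelial growth factors and placental growth factor, carried the strongest signal among the members. The region chr5:147704367-147709867 lies in intron 1, which is 25.3 kb long, and held 83.3 and 91.2 CPM in Fam5snv/snv and 82.7 and 68.6 CPM in WT. Its mean of 81.4 CPM over the 4 libraries exceeded that of 96.6% of all tested regions away from gene starts. Per kb of called peak its mean exceeded that of 82.1% of all tested regions. The log2 fold change was 0.21 ± 0.21 (SE; 95% interval −0.28 to 0.69), and the Fam5snv/snv libraries lay above both WT libraries by under 1 CPM. Fam5snv/snv replicate 1 had 1 called peak at this region, 16.37 to 21.60 kb from the start, and each other library had 2. In WT replicate 2 the nearer peak lay at 16.73 to 18.80 kb and the farther at 20.02 to 21.55 kb, with 114 and 81 cut sites. The nearer peak holds the intron 1 sequence shown above.

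The second *Flt1* region, chr5:147661396-147663047 in intron 10, held 9.57 and 15.6 CPM in Fam5snv/snv and 22.1 and 18.3 CPM in WT. Fam5snv/snv was lower without overlap, but the log2 fold change of −0.68 ± 0.39 (SE; 95% interval −1.60 to 0.24) had unadjusted p = 0.122 by edgeR. This region holds the 5 cores. Per kb of called peak it held 14.5 and 12.3 CPM in Fam5snv/snv and 40.1 and 11.8 CPM in WT, where the value of WT replicate 1 was the highest of the 17 regions in that library. At the *Flt1* start, chr5:147725046-147727791 held 26.4 and 22.5 CPM in Fam5snv/snv and 6.31 and 35.9 CPM in WT, where the WT libraries enclosed both Fam5snv/snv values. Its log2 fold change of 0.21 ± 0.65 (SE) turned to −0.56 when WT replicate 1 was left out and to 1.95 when WT replicate 2 was. Summed over the 3 regions, *Flt1* held 119.2 and 129.2 CPM in Fam5snv/snv and 111.1 and 122.7 CPM in WT, the narrowest interval of the 7 tested genes (log2 fold change 0.09 ± 0.15 SE, 95% interval −0.25 to 0.43).

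*Kdr*, *Tek* and *Tie1* had no region with a peak in every library, because WT replicate 1 had no called peak within 20 kb of any of them, and could not be tested. A library without a peak has no count there, which is not a measurement of 0. At *Kdr*, the main signalling receptor for vascular endothelial growth factor, the peak over the promoter, chr5:75977679-75978889, held 55 and 38 cut sites in Fam5snv/snv and 9 in WT replicate 2. No other *Kdr* region had a peak in more than 2 libraries. At *Tek*, peaks in 3 libraries stood in introns, at chr4:94745854-94746734 with 40 and 40 cut sites in Fam5snv/snv and 13 in WT replicate 2, and at chr4:94752430-94753507 with 25 and 21 in Fam5snv/snv and 15 in WT replicate 2. At *Tie1*, the strongest peak was inside the gene, chr4:118475487-118477711, with 35 and 105 cut sites in Fam5snv/snv and 11 in WT replicate 2. The Fam5snv/snv counts at *Tie1* were far apart, as were the lengths of the called peaks, 607 and 2225 bp. These are raw cut sites, and the Fam5snv/snv libraries had 7167305 and 7662318 cut sites in tested regions against 2786516 in WT replicate 2, so the counts of the genotypes are not on 1 scale.

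At gene starts, *Tek* and *Tie1* had no peak within 1 kb of a coding start in any library, a state shared by 25.6% of 21951 genes, and *Cdh5* had one only in Fam5snv/snv replicate 2, with 2 cut sites. A promoter region with a peak in every library was found for 5 of 10 members (*Erg*, *Fli1*, *Sox17*, *Sox18* and *Flt1*) and for 59.1% of all genes. By library, a promoter peak was called at 7 and 8 of 10 members in Fam5snv/snv (70.1% and 71.7% of all genes) and at 5 and 7 of 10 in WT (59.3% and 70.4% of all genes).

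*Cdh5*, whose product VE-cadherin joins endothelial cells, had its tested signal at the other end of the gene. The region chr8:104142406-104144252 overlaps the last exon, with coding sequence and 3′ untranslated sequence, and holds the tandem cores shown above. It held 6.97 and 18.1 CPM in Fam5snv/snv and 9.11 and 13.4 CPM in WT. The Fam5snv/snv libraries enclosed both WT libraries, and the log2 fold change was 0.16 ± 0.56 (SE; 95% interval −1.17 to 1.48). A fainter region just downstream, chr8:104145908-104146965, held 5.61 and 5.31 CPM in Fam5snv/snv and 5.96 and 5.63 CPM in WT, the closest agreement of all libraries among the 17 regions (log2 fold change −0.09 ± 0.64 SE).

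The order of the genes was compared per kb of called peak within a library, since peak lengths differ between libraries. *Flt1* was first in all 4 libraries, with 13.99 and 15.03 CPM per kb in Fam5snv/snv and 33.32 and 15.97 in WT. *Erg* was second in 3 libraries and number 3 in Fam5snv/snv replicate 2, with 12.5 and 11.0 CPM per kb in Fam5snv/snv and 27.8 and 14.0 in WT. The other 5 genes changed places: *Fli1* ranked number 3 in WT replicate 1 and sixth elsewhere, *Sox17* ranked second in Fam5snv/snv replicate 2 and last in WT replicate 1, and *Cdh5* ranked last in Fam5snv/snv replicate 1 and number 3 in WT replicate 2. These neighbours did not keep their order across replicates. In tests on the summed counts of each gene, 0 of 7 members had an adjusted p under 0.05 with edgeR (0.0% of 16363 genes). At an unadjusted p under 0.05 with edgeR, 2 of 7 were higher in Fam5snv/snv (*Fli1* and *Sox18*), beside 2.64% of all genes, and 0 of 7 were lower, beside 11.9%. Both regions in the *Sox18* sum overlap a neighbouring gene. The *Fli1* sum holds a region that reached the minimum count only through Fam5snv/snv. DESeq2 gave no adjusted p for any of the 7 members, so it could not call them. It called 0.00611% of all genes higher. Without WT replicate 1, edgeR called *Sox18* with adjusted p = 0.0364 (2.73% of all genes higher), and without WT replicate 2 it called *Fli1* and *Sox18* with adjusted p = 0.000409 and 0.0494 (7.07% of all genes higher). Both Fam5snv/snv libraries lay above both WT libraries at 3 of 7 genes (11.2% of all genes) and below them at 1 of 7 (38.9% of all genes), and below them per kb of peak at 3 of 7 (82.2% of all genes). The median log2 fold change was 0.09 over the 7 genes and −0.16 over all genes.

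Signal at these genes was spread thinly over many barcodes. Each barcode was thinned to 565 cut sites in tested regions, which left out 642 barcodes of WT replicate 1 and 1 of WT replicate 2 that had fewer. A cut site at any of the 7 genes was then present in 20.01% and 19.85% of barcodes in Fam5snv/snv (95% exact binomial intervals 18.4% to 21.7% and 18.4% to 21.4%), and in 13.8% and 17.4% in WT (12.3% to 15.5% and 15.5% to 19.6%). Before thinning these shares were 44.1% and 43.3% in Fam5snv/snv and 19.8% and 30.7% in WT. The thinned difference of 4.29 percentage points compares 2 libraries with 2, for which the smallest p an exact two-sided permutation test can give is 0.33, so no such test could pass. The intervals cover counting error only, and both ends of a fragment count as cut sites.

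By gene, *Flt1* was hit in 5.81% and 6.13% of barcodes in Fam5snv/snv and 4.04% and 5.81% in WT, and *Erg* in 6.33% and 5.11% in Fam5snv/snv and 3.83% and 4.87% in WT. *Sox18* was hit in 4.27% and 4.38% in Fam5snv/snv and 2.85% and 3.20% in WT, and *Fli1* in 3.65% and 3.54% in Fam5snv/snv and 1.55% and 2.76% in WT. For *Erg*, *Fli1* and *Sox18* both Fam5snv/snv shares were above both WT shares, but the counting intervals of Fam5snv/snv overlapped those of WT replicate 2 at each. For *Erg* this rests on the thinning: with barcodes thinned over all cut sites in peaks, the shares were 4.88% and 3.58% in Fam5snv/snv and 3.88% and 4.14% in WT, which overlap. *Sox17* was hit in 0.985% to 1.19%, *Cdh5* in 0.352% to 1.24% and *Sox7* in 0.396% to 0.881% of barcodes, with the genotypes interleaved or within their counting error.

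**Figure D4:**
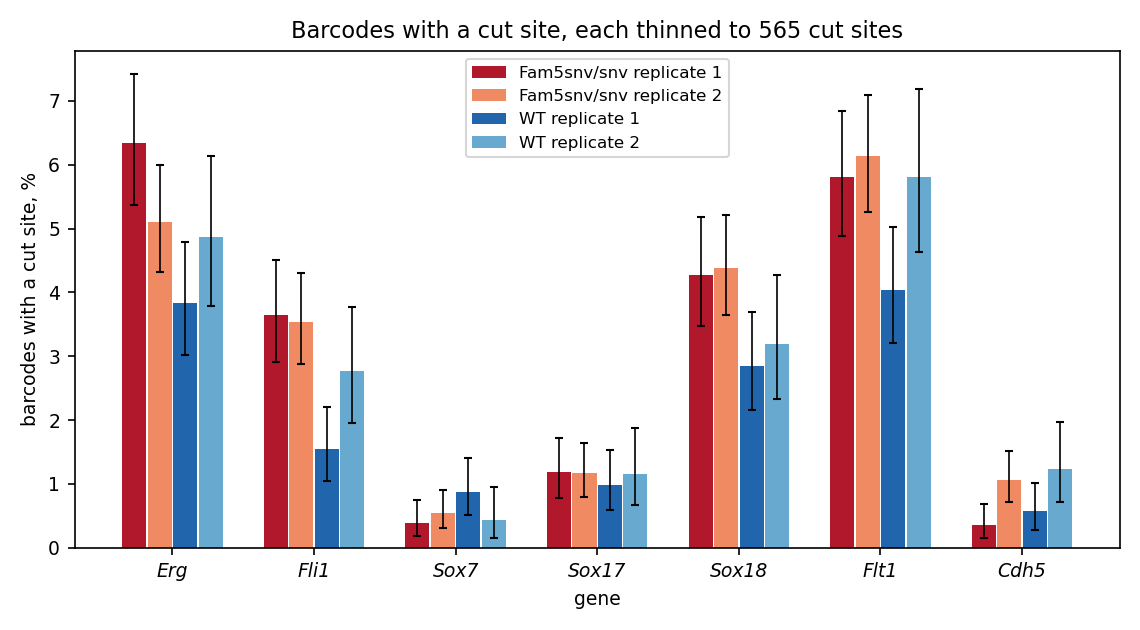
Share of barcodes with at least 1 cut site at each of the 7 tested genes after thinning to 565 cut sites per barcode, with 95% exact binomial intervals as error bars, Fam5snv/snv bars left of WT bars. *Erg* and *Flt1* have the largest shares, up to 6.33% and 6.13%, and WT replicate 1 has the lowest bar at *Erg*, *Fli1*, *Sox17*, *Sox18* and *Flt1*.

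After thinning, 2 or more of the 7 genes were hit in 1.76% and 1.93% of barcodes in Fam5snv/snv and in 0.881% and 1.89% in WT, and the most genes hit in 1 barcode was 4 and 3 in Fam5snv/snv and 2 and 3 in WT. Before thinning, these shares were 13.2% and 10.3% in Fam5snv/snv and 2.80% and 6.54% in WT, with up to 5 genes in 1 barcode. The share that independent hits would give was not computed. Among barcodes with a cut site at *Flt1*, another member was hit in 15.2% and 16.7% in Fam5snv/snv and in 10.3% and 23.8% in WT. Among barcodes without one, the shares were 15.1% and 14.6% in Fam5snv/snv and 10.2% and 12.3% in WT. The 2 shares were close in 3 libraries and apart in WT replicate 2, where the first rests on 19 of 80 barcodes. For *Sox17* the share was higher among barcodes with a cut site in all 4 libraries, at 25.9% (7 of 27 barcodes) against 19.0% without one in Fam5snv/snv replicate 1 and at 21.1% (4 of 19) against 13.0% without one in WT replicate 1. *Sox7* had the same order in all 4 libraries, and each share with a cut site at *Sox7* rests on 2 to 4 barcodes, at *Sox17* on 4 to 8. At *Erg*, *Fli1*, *Sox18* and *Cdh5* the order turned between libraries. For *Erg* the shares were 11.8% with a cut site and 14.6% without one in Fam5snv/snv replicate 1, and 19.4% and 13.2% in WT replicate 2. In all libraries together, 1 thinned barcode was hit at 4 of the 7 genes and none at more. Outside *Sox7*, no barcode gave more than 7.41% of a gene's cut sites in a library.

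Of a list of 45 other endothelial genes, 43 were tested and 0 passed the adjusted threshold with edgeR. At an unadjusted p under 0.05, 1 of 43 was higher and 4 of 43 were lower in Fam5snv/snv (2.64% and 11.9% of all genes), and the median log2 fold change was −0.09, beside −0.16 over all genes. *Heg1*, a transmembrane protein of endothelial junctions that acts in heart and vessel development, held 109.1 and 108.2 CPM in Fam5snv/snv and 67.3 and 78.1 CPM in WT (log2 fold change 0.58 ± 0.16 SE, unadjusted p = 0.00467, adjusted p = 0.317 by edgeR). The semaphorin and growth factor co-receptor *Nrp2* and the endothelial guidance receptor *Robo4* followed, with log2 fold changes of 0.26 ± 0.15 and 0.36 ± 0.25 (SE), neither under 0.05 before adjustment. In the other direction, *Cd34*, a sialomucin of endothelial and blood progenitor cells, held 9.84 and 12.8 CPM in Fam5snv/snv and 18.9 and 29.9 CPM in WT (log2 fold change −1.11 ± 0.39 SE, unadjusted p = 0.0171, adjusted p = 0.319 by edgeR). The glucose transporter *Slc2a1* of the blood-brain barrier and the blood and endothelial factor *Tal1* had log2 fold changes of −0.44 ± 0.16 and −0.46 ± 0.20 (SE), with adjusted p = 0.320 and 0.341 by edgeR. These 6 genes were picked as the 3 of smallest p in each direction, so that the 2 genotypes did not overlap at any of them adds no support. Both Fam5snv/snv libraries lay above both WT libraries at 8 of the 43 genes and below at 10, beside 11.2% and 38.9% of all genes. Per kb of called peak they lay below WT at all 6 (82.2% of all genes), with *Heg1* at 8.13 and 6.97 CPM in Fam5snv/snv and 24.5 and 10.0 CPM in WT.

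Lists for other cell types that the sort could hold gave 0 calls at the adjusted threshold, and their counts at an unadjusted p under 0.05 stand beside 2.64% of all genes higher, 11.9% lower and a median log2 fold change of −0.16. Of motor neuron and neuronal genes, 3 of 19 tested were higher and 0 lower at an unadjusted p under 0.05, with a median log2 fold change of 0.09. Of blood genes, 1 of 12 was higher and 0 lower, with a median of −0.18, and of mesenchyme, pericyte and neural crest genes, 1 of 9 was higher and 1 lower, with a median of 0.00. As these are occupancy values, they do not measure how many such cells each library held.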

How the data were processed

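Anti-NR2F1 single-cell CUT&Tag counts of 4 libraries (2 Fam5snv/snv, 2 WT) were used. For each library the authors deposited called peaks, cell barcodes and a matrix with the counts of cut sites of each barcode in each peak. Cell Ranger ATAC and the mm10 build are given in the submitters' processing notes, and the matrix headers state software version 1.2.0. Counts have no value outside a library's own peaks. The 10 genes and the gene lists were chosen with earlier results of these data known.

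Peaks were merged by 1 bp overlap, annotated with GENCODE M21 (promoter: 1 kb on either side of a coding start), and counts were summed over barcodes, which were not taken as replicates; no doublet caller was run. Regions with a peak in all 4 libraries and no fewer than 10 cut sites in 2 or more of them were tested with edgeR 4.0.16 (quasi-likelihood, TMM, no block; R 4.3.3) over all regions, or over all genes on counts summed within 20 kb, with Benjamini-Hochberg adjustment. The fit has 2 residual degrees of freedom and was tested on simulated data. CPM are per 1000000 TMM-scaled cut sites in tested regions. Libraries are pools of embryos; p-values measure the spread between them.

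The text names all 10 genes, the region at each start and the strongest other tested region, member regions with an unadjusted p under 0.05, further member regions needed to account for the 17, and of the other endothelial genes the 3 of smallest p in each direction. *Flt4* and *Hhex* of that list had no tested region. Same-numbered replicates did not deviate together (correlation 0.03), so numbers were not taken to pair libraries. Alternatives were DESeq2 1.42.0, DESeq2 size factors, other count minimums, scaling to all cut sites or to barcodes, peak length as an offset, 50% coverage in each library, the replicate block, other flanks (0 and 50 kb), other thinning and leaving out each library.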

Additional observations from a re-analysis of the deposited data

How the results depend on the processing

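The count of 0 called members among 17 regions and 7 genes was 0 under every alternative other than DESeq2, with 1 region, and leaving out 1 library, with 0 to 3 regions and 0 to 2 genes; each of the calls with a library left out came without WT replicate 1 or WT replicate 2. The fits without WT replicate 1 or WT replicate 2 rest on a lone WT library and also called regions and genes outside the members. The shares of all regions and genes they called higher are given above. At the gene level DESeq2 gave no adjusted p for any of the 7 genes, so its 0 there is not a test result. Requiring 50% coverage in each library kept 2 of the 17 regions and 2 of the 7 genes. The replicate block gave 0 calls and a log2 fold change of 1.03 at the *Erg* upstream region. Scaling by barcodes, to all cut sites or with peak length as an offset put the median log2 fold change at 0.97, −0.09 and −0.76 over all regions. Over all genes it was 0.80, −0.28 and −0.86 (0.02 and −0.16 as reported). Fold changes under them are given with the median kept at its reported value. On that scale and with the peak length offset, *Erg*, *Sox17*, *Sox18* and *Flt1* lie above the median gene at −0.16, and *Fli1*, *Sox7* and *Cdh5* lie below it. With the peak length offset, the sign turned at the genes *Erg* (−0.12), *Fli1* (−0.26), *Sox17* (0.23), *Sox18* (−0.01), *Flt1* (−0.05) and *Cdh5* (−0.26) and at the start regions of *Fli1* (−0.10), *Sox18* (−0.06) and *Sox17* (0.31), and the *Erg* upstream region was 0.16 and the *Sox7* gene −0.19, with no adjusted p under 0.05. *Erg* was −0.16 without flanks, a sum that leaves out its upstream and 3′ flank regions and keeps those across the gene start and in an intron. The *Sox17* gene and region were 0.26 with 50% coverage. Per barcode the *Sox17* and *Flt1* start regions were 0.00 and −0.03. The cause of the *Sox17* and *Flt1* changes was not tested. Leaving out 1 library gave −0.21 to 0.13 for the *Sox17* gene and region, −0.96 to −0.29 for the *Sox7* gene, −0.43 to 0.46 for the *Cdh5* gene, −0.56 to 1.95 for the *Flt1* start, 0.99 to 1.07 for the *Erg* upstream region, 0.38 to 1.39 for the *Fli1* start and 0.44 to 0.72 for the *Sox18* start. The difference in barcodes with a cut site at any gene, 4.29 percentage points, was 18.4 without thinning and 2.39 when thinned over all cut sites. Tested regions had medians of 126.0 and 139.0 cut sites in Fam5snv/snv and 42.0 and 47.0 in WT. Whether the errors come more from counting or from spread between libraries was not tested.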
